A study of Mus musculus with 8 samples.

Results

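Claudins and their partners at the tight junction were examined as a set of 10 genes, chosen by symbol: Cldn2, Cldn3, Cldn4, Cldn7, Cldn8, Cldn15, Cldn23, Ocln, Tjp1 and F11r. All 10 were found in both deposited tables, which list 40178 genes between them, and all 10 passed the filter on low counts in every comparison. RNAseq had been performed on intestinal epithelial cells (IECs) that EDTA released from the colon and the ileum of 8-week-old littermate mice, 2 of genotype Ddx5+/+ Villin1Cre+ (WTIEC) and 2 of genotype Ddx5fl/fl Villin1Cre+ (DDX5ΔIEC), which gave 8 libraries. The controls carried Cre as well, Cre was driven by the Villin1 promoter of the epithelium, and the released cells were not sorted before RNA extraction. Values are given as CPM, counts per 1000000 counts of the library after TMM scaling over the 8 libraries, and groups as mean ± SD of 2 mice.

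Tight junctions seal the space between neighbouring epithelial cells near the apical surface. Claudins span the membrane and set how leaky the seal is: some, such as claudin-2 and claudin-15, form pores that let small cations through, whereas others tighten the seal. Occludin (Ocln) and the adhesion molecule JAM-A (F11r) lie beside them in the membrane, and the scaffold ZO-1 (Tjp1) ties them to actin. In the gut, Cldn15 is known as a small intestinal claudin and Cldn8 as a claudin of the distal colon.

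Total counts on genes ranged from 11571061 to 22984283 per library. Ddx5, the targeted gene, was at 771 and 706 CPM in WTIEC colon and at 367 and 355 in DDX5ΔIEC colon. In the ileum it was at 700 in both WTIEC libraries and at 340 and 326 in DDX5ΔIEC. DDX5ΔIEC ileum replicate 2 had 19.5% of its counts on 3 repeat-like genes, against 4.04% at most in the other libraries, and the called or larger values that rest on it are also given without it. The epithelial identity of the cells was checked with 8 markers (Epcam, Vil1, Krt8, Krt18, Krt19, Krt20, Cdx2 and Cdh1), which were above 0 in every library and summed to between 10761 and 17617 CPM. The sum over 9 leukocyte markers was 7.45 to 74.2 CPM.

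Of the 10 genes, 5 lie on their own on chromosomes 1 (F11r), 7 (Tjp1), 8 (Cldn23), 11 (Cldn7) and 13 (Ocln), 2 on chromosomes 16 (Cldn8) and X (Cldn2), and the other 3 (Cldn3, Cldn4 and Cldn15) on chromosome 5. Cldn4 (chromosome 5, 134945119 to 134946934, minus strand) and Cldn3 (134986214 to 134987472, plus strand) are neighbours 39279 bases apart in GRCm38. Cldn15 lies further along, from 136966616 to 136975858. The sequences around the start sites of these 3 are shown because Cldn4 and Cldn15 were higher in the ileum than in the colon while Cldn3, next to Cldn4, was not. Each runs 5′ to 3′ from 250 bases before the RefSeq start site to 50 after it (GRCm38.p6), and capitals mark matches to the AP-1 motif TGANTCA.
Cldn4 (chr5:134946885-134947184, minus strand): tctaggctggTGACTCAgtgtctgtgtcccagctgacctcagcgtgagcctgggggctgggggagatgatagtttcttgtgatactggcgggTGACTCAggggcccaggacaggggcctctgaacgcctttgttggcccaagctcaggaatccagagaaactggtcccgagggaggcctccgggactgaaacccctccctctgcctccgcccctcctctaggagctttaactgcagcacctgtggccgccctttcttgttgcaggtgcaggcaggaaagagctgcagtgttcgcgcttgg
Cldn15 (chr5:136967619-136967918, plus strand): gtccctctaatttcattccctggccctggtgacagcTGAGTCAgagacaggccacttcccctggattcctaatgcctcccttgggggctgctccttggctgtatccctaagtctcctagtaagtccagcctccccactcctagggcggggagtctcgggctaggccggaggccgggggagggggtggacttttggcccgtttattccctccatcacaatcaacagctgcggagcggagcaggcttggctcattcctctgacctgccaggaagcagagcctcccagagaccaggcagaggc
Cldn3 (chr5:134985964-134986263, plus strand): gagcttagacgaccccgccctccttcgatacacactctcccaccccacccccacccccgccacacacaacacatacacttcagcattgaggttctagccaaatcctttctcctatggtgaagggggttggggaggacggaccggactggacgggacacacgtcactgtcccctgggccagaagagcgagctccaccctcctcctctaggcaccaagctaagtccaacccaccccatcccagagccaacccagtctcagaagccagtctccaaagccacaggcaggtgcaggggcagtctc
Windows of this kind, 10 in all with 2 each for Cldn7 and Ocln, were at hand for 8 of the 10 genes, all but Cldn8 and Cldn23. The AP-1 letters occurred in 3 of the 10 windows (Cldn4 with 2 matches, Cldn15 and F11r with 1 each) and in 7.81% of the 32851 promoter windows of all genes. Both strands were searched, and a match describes letters only. Cldn7, Ocln and Tjp1, also called higher in WTIEC ileum, held no AP-1 match. F11r, which held 1, was not called there (log2 fold change 0.011). The SP1 letters GGGCGG occurred in 8 of the 10 windows and in 35.7% of all windows, and the TATA letters TATAAA in Cldn2 alone and in 13.6% of all windows. None of the 10 windows held the letters TTTATNG (CDX), CAAAGTCCA (HNF4) or AACNGGTT (GRHL), which 10.9%, 0.475% and 2.09% of all windows hold.

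To compare genes with one another, CPM was divided by the length of each gene's exons in kilobases. In WTIEC colon, Cldn3 (243 ± 12.2 CPM per kilobase, SD, n = 2) and Cldn7 (222 ± 6.55) were the highest of the 10. Cldn8 (75.5 ± 5.23), Cldn15 (67.3 ± 6.66) and F11r (65.4 ± 0.274) came next, and the libraries of Cldn15 overlapped those of both neighbours in that order. Cldn2 (32.4 ± 4.05) and Ocln (30.8 ± 2.09) overlapped each other and were followed, without overlap, by Cldn23 (26.1 ± 3.21), Tjp1 (18.0 ± 2.34) and Cldn4 (11.5 ± 3.35). Cldn4 was thus at the bottom of the order in the colon.

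In WTIEC ileum the order changed at both ends. Cldn7 (319 ± 22.8 CPM per kilobase), Cldn3 (242 ± 33.0) and Cldn15 (173 ± 0.603) led without overlap. F11r (65.9 ± 0.859), Cldn4 (60.5 ± 12.1), Cldn2 (47.6 ± 11.5) and Ocln (46.3 ± 2.82) followed, each overlapping the next, and then Tjp1 (26.6 ± 0.750) and Cldn23 (22.8 ± 0.547). Cldn8 was last of the 10 at 3.00 ± 0.136. Which of Cldn3 and Cldn7 led in the colon depended on the length used: with the longest transcript in place of all exons, Cldn7 was at 325 ± 9.56 CPM per kilobase there and Cldn3 at 243 ± 12.2.

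As a share of all claudin RNA per kilobase in a library (22 claudin genes listed), Cldn3 and Cldn7 together made up 66.8% ± 0.730 in WTIEC colon and 63.7% ± 2.30 in WTIEC ileum. Each of the 2 also differed by tissue, in opposite directions and without overlap. Cldn3 took 34.8% ± 0.730 in WTIEC colon and 27.5% ± 2.01 in WTIEC ileum, and Cldn7 took 31.9% ± 0.000562 and 36.2% ± 0.289. Several of the minor claudins differed by tissue as well. The pore-forming Cldn2 and Cldn15 together took 14.3% ± 1.96 in WTIEC colon and 25.03% ± 0.210 in WTIEC ileum. Colonic Cldn8 took 10.8% ± 0.431 and ileal Cldn8 0.342% ± 0.0372. Cldn4 took 1.64% ± 0.432 in WTIEC colon and 6.94% ± 1.82 in WTIEC ileum. Claudins outside the 10 genes held 2.71% ± 0.0148 in WTIEC colon and 1.41% ± 0.130 in WTIEC ileum. These shares are descriptions and were not tested.

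**Figure D1:**
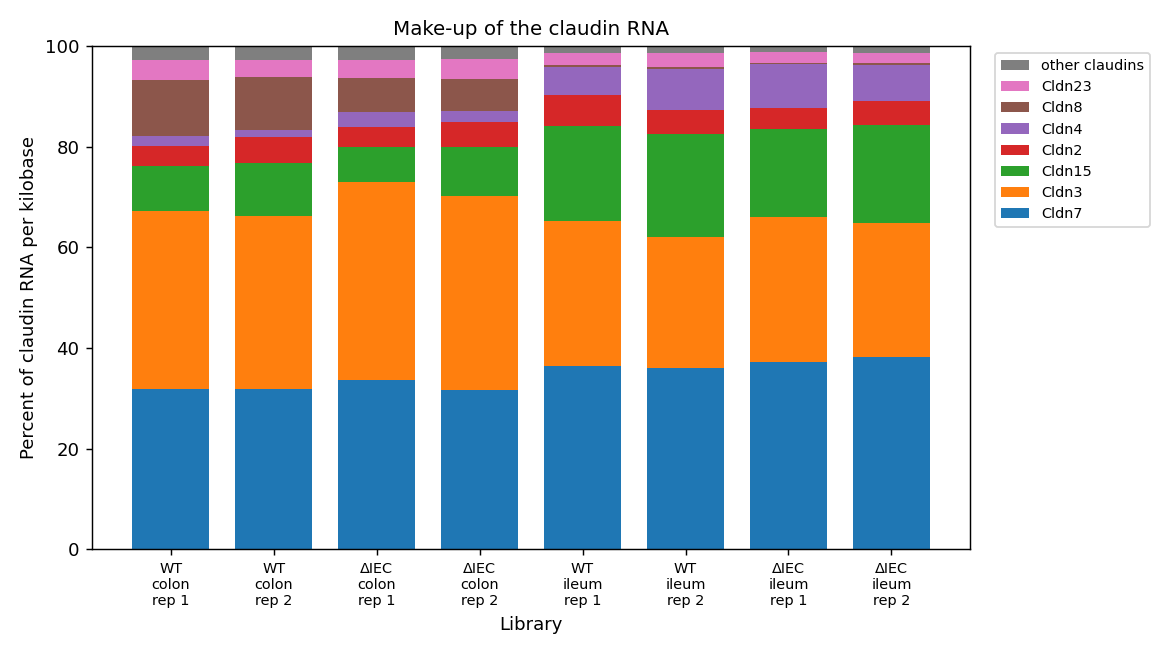
Stacked bars show the percent of claudin RNA per kilobase (CPM divided by exon length) that each claudin took in each of the 8 libraries. Cldn3 and Cldn7 filled 62.1% to 72.9% of every bar, Cldn8 is a broad band in the 4 colon bars and at most 0.368% in the ileum, and Cldn15 and Cldn4 are broader in the ileum.

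Ileum and colon were first compared in WTIEC mice, to see which junction genes distinguish the tissues when Ddx5 is intact. Of the 10 genes, 6 (5 higher and 1 lower in the ileum) passed an adjusted p-value of 0.05 in edgeR's quasi-likelihood test over all 8 libraries, against 34.2% of the 16178 genes tested (17.4% higher and 16.8% lower). Cldn8 was lower in the ileum, and Cldn4, Cldn15, Cldn7, Ocln and Tjp1 were higher. The median log2 fold change was 0.54 over the 10 genes and −0.018 over all genes tested. In bulk RNA, fewer cells of a type and less RNA per cell cannot be told apart.

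Cldn8, a claudin that tightens the colonic barrier, showed the widest difference of the 10. It was at 187 and 169 CPM in WTIEC colon replicates 1 and 2 and at 6.83 and 7.28 CPM in WTIEC ileum. The tissues did not overlap, and the colon mean was 25.2 times the ileum mean. The log2 fold change of ileum over colon was −4.66 (SE 0.26, adjusted p = 7.46e-06, edgeR). Ileal Cldn8 still rested on 148 and 105 counts.

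Cldn4, which belongs to the claudins that bind the enterotoxin of Clostridium perfringens, went the other way. It was at 25.1 and 16.5 CPM in WTIEC colon and at 94.4 and 125 in WTIEC ileum, 5.28 times as much on average. Its log2 fold change was 2.40 (SE 0.28, adjusted p = 0.000312, edgeR). Cldn3, its neighbour on the chromosome, binds the same toxin and was at 317 and 295 CPM in the colon and 335 and 276 in the ileum, so that the tissues overlapped. Its log2 fold change was −0.0022 with a 95% interval of −0.37 to 0.37, and the sign of so small a value turned with the scaling of the libraries.

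Of the pore-forming pair, Cldn15 was at 133 and 153 CPM in WTIEC colon and at 368 and 366 in WTIEC ileum. The ileum was 2.57 times the colon, without overlap (log2 fold change 1.36, SE 0.17, adjusted p = 0.000547, edgeR). Cldn2, the other cation and water pore, was at 98.2 and 117 CPM in the colon and at 185 and 131 in the ileum. Its 2 tissues did not overlap either, but the ileal mice were far apart and the difference missed the threshold (0.55, SE 0.20, adjusted p = 0.0655, edgeR). DESeq2 on the same libraries gave Cldn2 an adjusted p of 0.0306, and edgeR with no filter on low counts gave 0.00872.

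Cldn7, a claudin also found along the lateral membrane, was at 442 and 424 CPM in WTIEC colon and 652 and 589 in WTIEC ileum (log2 fold change 0.52, SE 0.14, adjusted p = 0.0214, edgeR). Ocln was at 136 and 124 CPM in the colon and 204 and 187 in the ileum (0.59, SE 0.11, adjusted p = 0.00303). Tjp1 was at 153 and 128 CPM and at 212 and 204 CPM (0.57, SE 0.12, adjusted p = 0.00740). In each of these 3 genes the tissues did not overlap, and the ileum was about 1.43 to 1.51 times the colon. Their calls depended on single libraries: without WTIEC colon replicate 2, only Cldn4, Cldn8 and Cldn15 were called, Tjp1 was also lost without WTIEC ileum replicate 1, and Cldn7 was lost without any one of the 4 WTIEC libraries.

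F11r and Cldn23 differed little. F11r was at 174 and 175 CPM in WTIEC colon and at 177 and 174 in WTIEC ileum (log2 fold change 0.011, 95% interval −0.24 to 0.26). Cldn23 was at 52.4 and 44.0 CPM in the colon and 42.8 and 41.3 in the ileum (−0.20, 95% interval −0.56 to 0.17). Neither interval reached a change of 1 on the log2 scale.

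The comparison was repeated in DDX5ΔIEC mice, with 5 of the 10 genes called (4 higher and 1 lower in the ileum) against 35.3% of all genes tested (18% higher and 17.3% lower). Cldn8 was at 110 and 109 CPM in the colon and at 2.90 and 6.53 in the ileum (log2 fold change −4.55, SE 0.27, adjusted p = 1.13e-05, edgeR). Without ileum replicate 2 it was −5.21. Cldn4 (2.20, SE 0.27), Cldn15 (1.71, SE 0.17), Cldn7 (0.79, SE 0.14) and Cldn2 (0.62, SE 0.20) were higher in the ileum, with adjusted p-values of 0.000462, 0.000172, 0.00304 and 0.0434. Without ileum replicate 2, Cldn4 was at 2.48, Cldn15 at 1.80 and Cldn7 at 0.94, all still called. The call of Cldn2 was lost without ileum replicate 2 (0.69, adjusted p = 0.0726) and without 4 other single libraries.

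Ocln and Tjp1, called in WTIEC, were not called in DDX5ΔIEC. Ocln was at 148 and 151 CPM in DDX5ΔIEC colon and at 183 and 181 in the ileum (log2 fold change 0.28, SE 0.11, adjusted p = 0.0683, edgeR). Tjp1 was at 172 and 162 CPM and at 185 and 197 CPM (0.20, SE 0.12, adjusted p = 0.241). Without ileum replicate 2 they were at 0.31 and 0.17. The difference between the 2 genotypes was itself tested as the interaction of tissue and genotype, which gave −0.31 (95% interval −0.65 to 0.031) for Ocln and −0.37 (−0.76 to 0.021) for Tjp1, each with an adjusted p of 1.00. Without DDX5ΔIEC ileum replicate 2 the interaction was −0.27 for Ocln and −0.38 for Tjp1. For Tjp1 it ran from −0.51 to −0.24 over single libraries left out.

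None of the 10 genes passed the interaction test in edgeR (0.0124% of all genes did), and none had an unadjusted p under 0.05 (4.67% of all genes). DESeq2 also called none. Within each mouse, the ileum was above the colon in 4 of 4 mice for Cldn2, Cldn4, Cldn7, Cldn15, Ocln and Tjp1 and below it in 4 of 4 for Cldn8. F11r was higher in the ileum of 3 mice, Cldn3 of 2 and Cldn23 of 1.

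**Figure D2:**
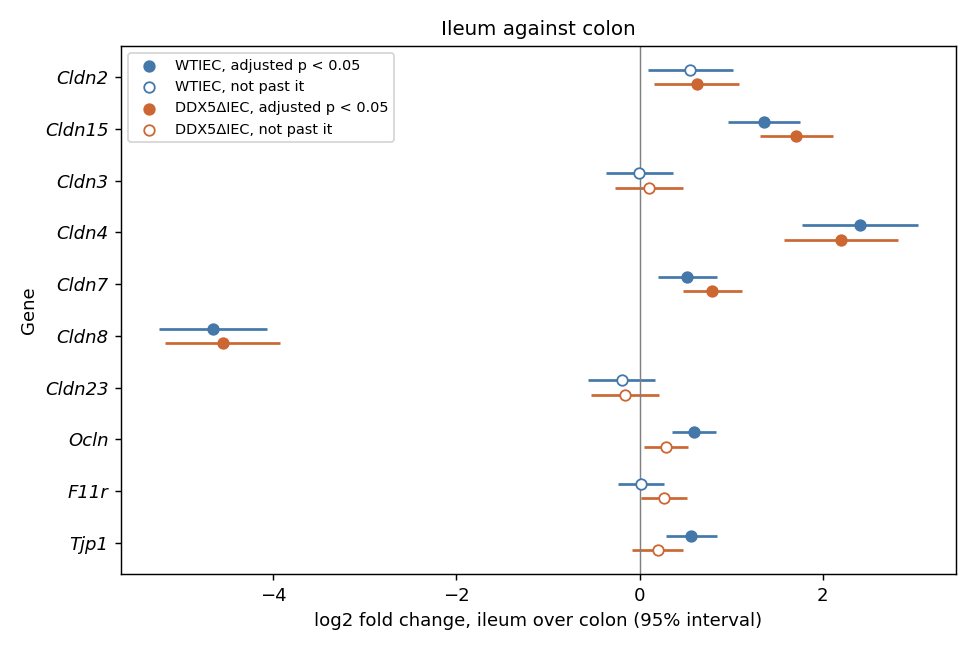
Points give the log2 fold change of ileum over colon for each of the 10 genes in WTIEC (blue) and DDX5ΔIEC (orange), lines the 95% interval from edgeR, and filled points an adjusted p-value under 0.05. Cldn8 stands alone on the left near −4.6, Cldn4 and Cldn15 lie on the right, and the intervals of the 2 genotypes overlap for every gene.

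DDX5ΔIEC was then compared with WTIEC within each tissue, to ask which junction genes depend on Ddx5. In the colon, none of the 10 genes passed an adjusted p-value of 0.05 in edgeR, and neither did any of the 15362 genes tested (0%). At an unadjusted p under 0.05, 3 of the 10 did (Cldn8, Cldn4 and Tjp1), against 12% of all genes. DESeq2 with the same terms called 1, Cldn8, and 117 genes in all. By the criterion of the study, an unadjusted p under 0.05 together with a log2 fold change of 0.5 or more up or down, Cldn8 was lower and Cldn4 was higher in DDX5ΔIEC colon, 2 of 10 against 6.71% of all genes (3.04% higher and 3.67% lower).

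Cldn8 was at 187 and 169 CPM in WTIEC colon and at 110 and 109 in DDX5ΔIEC colon. The genotypes did not overlap, and the DDX5ΔIEC mean was 0.614 times the WTIEC mean. The log2 fold change was −0.71 (SE 0.081, 95% interval −0.92 to −0.50), with an adjusted p of 0.166 in edgeR and 0.00112 in DESeq2. Over every alternative, single libraries left out included, the value stayed between −0.78 and −0.65.

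Cldn4 was at 25.1 and 16.5 CPM in WTIEC colon and at 38.8 and 29.4 in DDX5ΔIEC colon, again without overlap. Its log2 fold change was 0.72 (SE 0.11, 95% interval 0.44 to 0.99, adjusted p = 0.226, edgeR). The value ran from 0.43 to 1.03 when single libraries were left out. Because a ratio of counts within a library does not depend on scaling, the ratio of Cldn4 to Cldn8 counts was also computed, a choice made after their values were seen. It was 0.134 and 0.0975 in WTIEC colon and 0.354 and 0.270 in DDX5ΔIEC colon. The 2 genes were picked for their opposite values, so a shift of this ratio adds no evidence. The ratio of Cldn4 to Cldn7 counts was 0.0567 and 0.0389 in WTIEC colon and 0.0849 and 0.0654 in DDX5ΔIEC colon. That of Cldn8 to Cldn7 was 0.422 and 0.399, then 0.240 and 0.243.

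The other colonic values were smaller. Tjp1 was at 153 and 128 CPM in WTIEC and at 172 and 162 in DDX5ΔIEC (log2 fold change 0.24, SE 0.085, adjusted p = 0.389, edgeR). Tjp1 was at 0.11 without WTIEC replicate 2 and at 0.37 without WTIEC replicate 1. Ocln was at 136 and 124 CPM and at 148 and 151 CPM (0.19, SE 0.083, adjusted p = 0.449), and Cldn3 at 317 and 295 CPM and at 344 and 355 CPM (0.18, SE 0.089, adjusted p = 0.483). In all 3 the DDX5ΔIEC libraries lay above both WTIEC libraries.

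Cldn7, Cldn23, Cldn2, F11r and Cldn15 had log2 fold changes between −0.20 and 0.052 in the colon. For Cldn15 (133 and 153 CPM in WTIEC, 105 and 149 in DDX5ΔIEC) and Cldn2 (98.2 and 117, 88.2 and 122) the genotypes overlapped, and both genes were lowest in DDX5ΔIEC replicate 1. Without that library Cldn15 was at 0.046 and Cldn2 at 0.17. In total 7 of the 10 genes had genotypes that did not overlap in the colon (5 above and 2 below WTIEC), against 44.6% of all genes tested (23.8% above and 20.7% below). The median log2 fold change of the 10 genes was 0.045, that of all genes −0.00042.

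In the ileum, none of the 10 genes was called by edgeR at an adjusted p-value of 0.05 (0.697% of the 14068 genes tested were), and none by DESeq2. Cldn4 and Cldn8 had an unadjusted p under 0.05, against 12.3% of all genes. Cldn8 met the criterion of the study, 1 of 10 against 7.35% of all genes (3.87% higher and 3.48% lower). It did not meet it without the replicate block, and Cldn4 met it in place of Cldn8 without the 3 repeat-like genes and with DESeq2.

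Cldn8 was at 6.83 and 7.28 CPM in WTIEC ileum and at 2.90 and 6.53 in DDX5ΔIEC ileum, which is 148, 105, 31 and 61 counts. Its log2 fold change was −0.65 (SE 0.28, 95% interval −1.28 to −0.027, adjusted p = 0.383, edgeR). The value rested on DDX5ΔIEC replicate 1: it was −0.11 without that library and −1.27 without replicate 2, the one rich in repeat-like genes. Cldn4 was at 94.4 and 125 CPM in WTIEC and at 187 and 125 in DDX5ΔIEC, so that one mouse of each genotype was alike (0.49, SE 0.20, adjusted p = 0.358). It was 0.19 without DDX5ΔIEC replicate 1 and 0.77 without replicate 2.

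Of the remaining genes, Cldn7 was at 652 and 589 CPM in WTIEC ileum and at 853 and 716 in DDX5ΔIEC ileum (log2 fold change 0.34, SE 0.19, adjusted p = 0.512, edgeR). Cldn3 was at 335 and 276 CPM and at 427 and 325 CPM (0.30, SE 0.16, adjusted p = 0.4999). Both leaned on DDX5ΔIEC replicate 1: without it Cldn7 was at 0.21 and Cldn3 at 0.092, and without replicate 2 they were at 0.47 and 0.49. For Cldn3, Cldn4, Cldn7 and Cldn15, DDX5ΔIEC replicate 1 was the highest of the 8 libraries. Cldn15, F11r, Cldn23, Cldn2, Ocln and Tjp1 had values between −0.12 and 0.18. In the ileum 6 of the 10 genes had genotypes that did not overlap (3 above and 3 below WTIEC), against 39.5% of all genes (18.7% above and 20.8% below). The median was 0.10 over the 10 genes and −0.0046 over all genes.

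**Figure D3:**
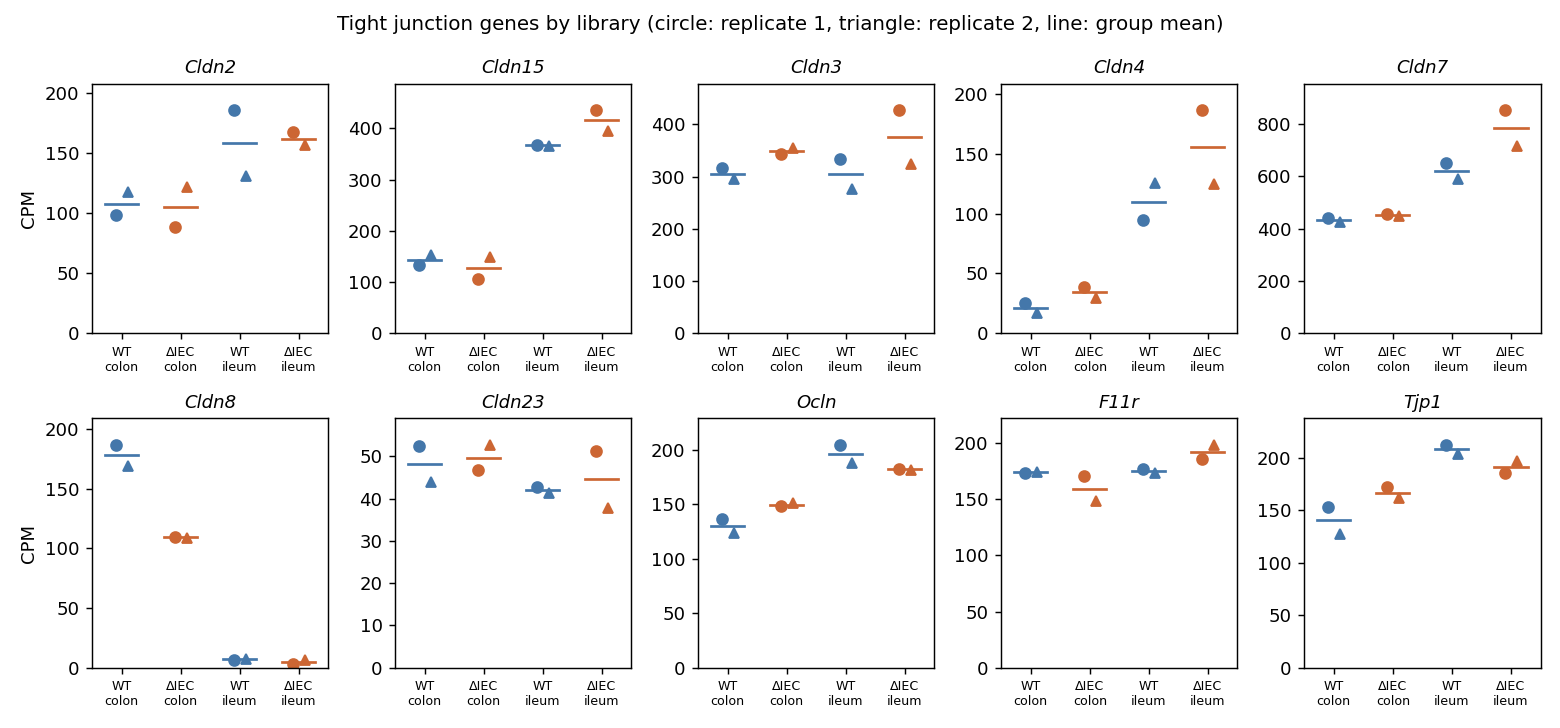
Each panel gives the CPM of 1 gene in the 8 libraries, with circles for replicate 1, triangles for replicate 2 and a line for the group mean, WTIEC in blue and DDX5ΔIEC (ΔIEC) in orange. In the colon the DDX5ΔIEC libraries of Cldn8 (110 and 109) lie below and those of Cldn4 (38.8 and 29.4) above both WTIEC libraries, while DDX5ΔIEC ileum replicate 1 is the top point of Cldn3, Cldn4, Cldn7 and Cldn15.

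**Figure D4:**
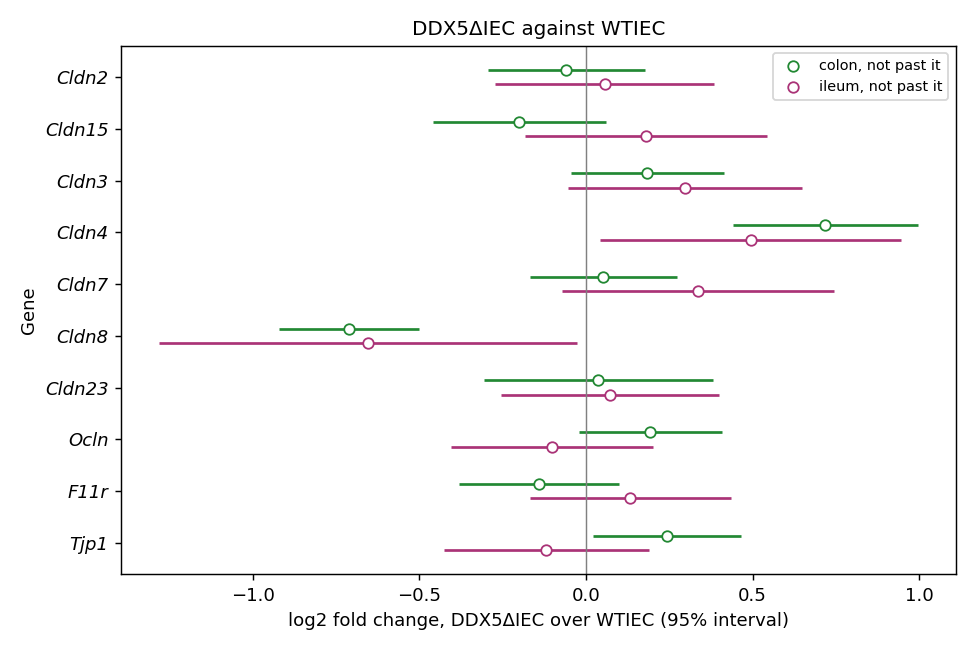
Points give the log2 fold change of DDX5ΔIEC over WTIEC for each gene in the colon (green) and the ileum (purple), with 95% intervals from edgeR. All points are open because no adjusted p-value was under 0.05; the intervals of Cldn4 and Cldn8 exclude 0 in both tissues and that of Tjp1 in the colon.

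Markers of cell types moved beside these values. In the colon, 3 of 6 surface colonocyte markers met the criterion of the study as higher in DDX5ΔIEC (none lower), against 3.04% of all genes higher and 3.67% lower, and the list summed to 3540 and 3794 CPM in WTIEC and 4329 and 4776 in DDX5ΔIEC. Among 6 goblet cell markers 2 met it as lower, and the sum was 46038 and 51388 CPM in WTIEC and 27422 and 41153 in DDX5ΔIEC. Clca1 (15002 and 15546 CPM in WTIEC, 4118 and 6508 in DDX5ΔIEC) and Fcgbp (16957 and 18582.5, then 11113 and 12269) fell the most. Muc2 (10679.5 and 13805, then 8832 and 19236) and Zg16 (1657 and 1243, then 1805 and 1373) overlapped between the genotypes. Of the 6 log2 fold changes 4 were negative and 2 positive, so this sum is not read as a measure of goblet cells. The 9 leukocyte markers, 5 of them tested and 2 lower by that criterion, summed to 30.7 and 23.9 CPM in WTIEC and 7.45 and 14.7 in DDX5ΔIEC, with Cd79a at 0 in 1 or more libraries. The 8 epithelial markers summed to 11040 and 10761 CPM and to 12070 and 11354 CPM. Of 4 tested genes on the Paneth cell list 2 met it as lower (sum 1392 and 1577 CPM in WTIEC, 218 and 427 in DDX5ΔIEC). Ang4 made up most of these sums (1312 and 1502 CPM in WTIEC, 200 and 387 in DDX5ΔIEC), followed by Itln1. Lyz1, Defa24, Defa30 and Mmp7 stayed at 2.10 CPM or less in every colon library, so these sums are not read as a measure of Paneth cells there. By the criterion 1 of the epithelial markers was lower, and none was higher. The part of these shifts in the values of Cldn8 and Cldn4 was not tested.

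In the ileum, the 6 villus enterocyte markers summed to 7574 and 8679 CPM in WTIEC and to 10733 and 6302 in DDX5ΔIEC. Replicate 1 of DDX5ΔIEC was the highest, as for Cldn3, Cldn4, Cldn7 and Cldn15, though Sis, 1 of the 6, was highest in WTIEC replicate 2 (4000 CPM). The same library was also the highest of the ileum for the sums of epithelial (17617 CPM) and goblet cell markers (32460 CPM). The surface colonocyte markers, 2 of 5 tested lower in DDX5ΔIEC by the criterion (3.48% of all genes), summed to 971 and 938 CPM and to 1065 and 802 CPM. Slc26a3, Car4 and Ceacam20, which made up most of these sums, overlapped between the genotypes. Car1 was scarce, with 90 and 22 counts in WTIEC and 10 and 3 in DDX5ΔIEC, and Saa1 ran from 7.39 to 108 CPM over the ileum libraries. The part of these lists in the ileal values of the 10 genes was not tested either. Between WTIEC tissues, all 6 villus enterocyte markers and 5 of 6 Paneth cell markers were higher in the ileum, and 3 of 6 surface colonocyte markers were lower and 2 higher. Of 6 goblet cell markers 3 were lower and 1 higher, and all 4 tested fibroblast markers were lower (6 markers summing to 8.30 and 13.997 CPM in WTIEC colon and 2.81 and 2.01 in WTIEC ileum). Over all genes 17.4% were higher and 16.8% lower. Crypt base stem cell markers summed to 699 and 655 CPM in WTIEC colon and to 1323 and 1271 in WTIEC ileum, and 4 of the 6 were called higher in the ileum and none lower. The rise of the sum came from Olfm4, at 0.525 and 0.484 CPM in the colon and 674 and 681 in the ileum. Slc12a2, the largest in the colon, went the other way (629 and 583 CPM, then 472 and 457). Leukocyte markers, 3 of 7 tested higher in the ileum, summed there to 59.4 and 74.2 CPM. The part of such differences in cell make-up in the tissue differences of the 10 genes was not tested.

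The rest of the junction was read from lists of its other genes. Of 17 other claudins, 15 were listed and 2 had enough counts to be tested in WTIEC tissue, Cldn12 and Cldn14, and both were lower in the ileum. The counts of this and the next 6 lists stand against 17.4% of all genes higher and 16.8% lower in WTIEC ileum (34.2% called). Cldn12 was at 77.2 and 73.6 CPM in WTIEC colon and 48.7 and 50.5 in WTIEC ileum (log2 fold change −0.60, SE 0.10, adjusted p = 0.00262, edgeR). Cldn14 was scarce, with 33 and 26 counts in WTIEC colon and 4 and 6 counts in WTIEC ileum (−2.31, SE 0.49, adjusted p = 0.00756).

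Among 7 tested membrane proteins of the tight junction other than the 10 genes, 2 were higher and 1 lower in WTIEC ileum, 3 of 7 against 34.2% of all genes. Both Lsr and Ildr1 encode angulins, which sit at tricellular corners, and they differed in opposite directions. Lsr was at 108 and 103 CPM in the colon and at 241 and 221 in the ileum (log2 fold change 1.13, adjusted p = 0.000570, edgeR), whereas Ildr1 was at 183 and 156 CPM and at 21.7 and 18.7 CPM (−3.07, adjusted p = 2.24e-05). Igsf5, an adhesion molecule of the JAM type, was also higher (0.61).

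Of 17 scaffold and polarity genes, 6 were higher and 3 lower in WTIEC ileum, against 17.4% and 16.8% of all genes. Cgnl1, which encodes paracingulin, was at 42.3 and 37.8 CPM in the colon and 3.46 and 3.47 in the ileum (log2 fold change −3.53, SE 0.20, adjusted p = 8.86e-06, edgeR). Prkci, an atypical protein kinase C, was lower (−0.93) and Mpp5, which encodes the polarity scaffold PALS1, was higher (0.91). Of 5 tested claudin partners and membrane proteases, the protease Prss8 was lower (−0.94) and the protease inhibitor Spint1 higher (0.71).

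Desmosomes, adherens junctions and actomyosin are further parts of the junctions between epithelial cells. Of 8 desmosome genes, 7 were higher in WTIEC ileum and none lower (17.4% of all genes higher), with a median log2 fold change of 0.64, led by Evpl (1.11), Dsg2 (1.01) and Pkp3 (0.75). Of 10 adherens junction genes, 5 were higher and 1 lower, with Nectin1 (0.95) and Nectin3 (0.85) among the higher ones and Nectin4 (−1.76) the lower. Of 7 actomyosin genes, 3 were higher and none lower: Mylk, the myosin light chain kinase that acts on the junction (1.59), Myh14 (0.63) and Rock1 (0.35). Of the list genes named, Spint1, Myh14 and Rock1 each lost the call without any one of the 4 WTIEC libraries, and Rock1 also with no filter on low counts. Nectin1 lost it without 3 of the 4 (all but WTIEC colon replicate 2), and Cldn14 without replicate 1 of either WTIEC tissue. Igsf5 and Nectin4 lost it without WTIEC colon replicate 1 and Mpp5 without WTIEC colon replicate 2.

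**Figure D5:**
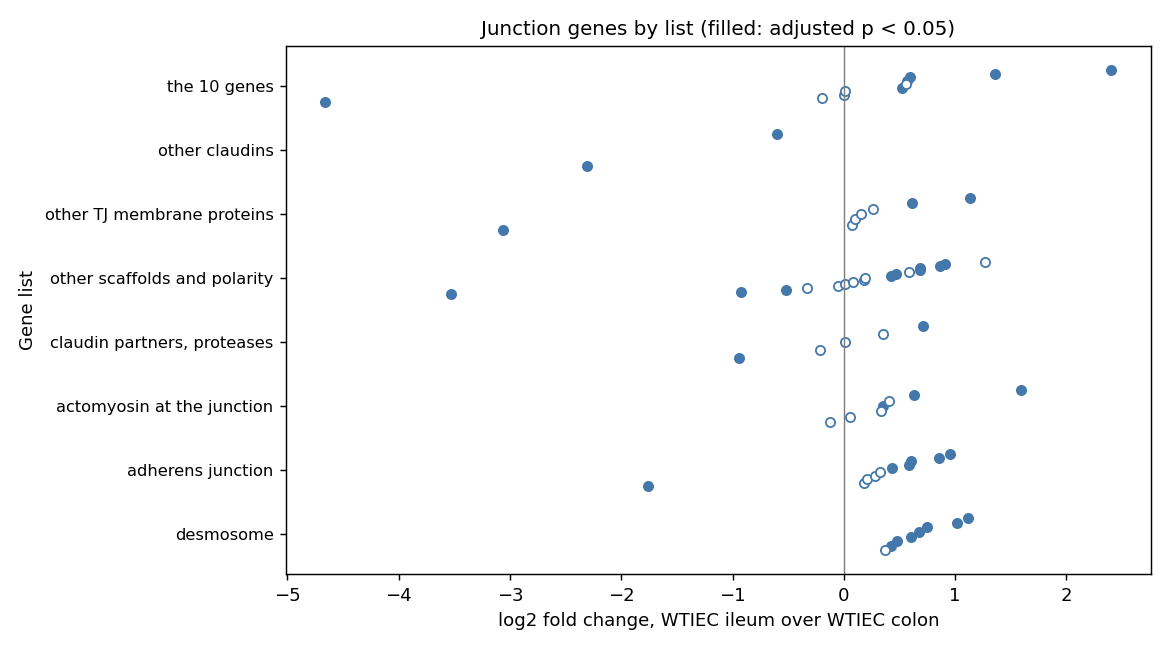
Each point is the log2 fold change of WTIEC ileum over WTIEC colon for 1 tested gene, in rows for the 10 genes and 7 further junction lists, filled where the adjusted p-value was under 0.05. Of the 8 desmosome points, 7 are filled and right of 0, while Cldn8, Cgnl1, Ildr1, Cldn14 and Nectin4 lie far to the left.

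Between genotypes, no gene of these 7 lists had an adjusted p-value under 0.05 in edgeR in either tissue. At an unadjusted p under 0.05 the colon had 8 of 56 tested, against 12% of all genes, and the ileum 0 of 54, against 12.3%. DESeq2 called 1 in the colon (Mpdz), against 0.762% of all genes, and 0 in the ileum. By the criterion of the study colonic genes meeting it were 2 of 56 (3.57%, against 6.71% of all genes) and ileal genes 0 of 54 (7.35% of all genes). Mpdz, a scaffold with many PDZ domains that binds claudins, was at 0.79 and 0.48 CPM in WTIEC colon and at 2.48 and 6.20 in DDX5ΔIEC colon, from 15, 11, 45 and 136 counts (log2 fold change 2.68, SE 0.52, adjusted p = 0.264). DESeq2 gave it an adjusted p of 0.0421, and it ran from 1.96 without DDX5ΔIEC replicate 2 to 3.29 without DDX5ΔIEC replicate 1. Nectin1, an adhesion molecule of the adherens junction, was at 16.8 and 21.8 CPM and at 9.71 and 13.3 CPM (−0.76, SE 0.12, adjusted p = 0.239, edgeR). Without WTIEC replicate 2 it was −0.56 and no longer met the criterion.

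For each of the 10 genes the genes most alike in log2 CPM over the 8 libraries were looked up among the 16178 tested, as a description in which the tissue difference weighs most. Cldn8 was followed most closely by Tnip3 (Pearson r 0.998) and Slc35a1 (0.997), Cldn4 by Erlin2 (0.997) and Cxcl16 (0.996), and Cldn15 by Adap2 (0.998) and Slc18a1 (0.997). Cldn7 came with P2ry4 (0.995) and Mlf2 (0.993), and Cldn2 with Snd1 (0.984) and Gm20712 (0.973). Among the 10 genes, only Ocln was the closest gene to another, Tjp1 (0.966), whose second was Mapkap1 (0.964). Ocln itself was closest to Zfp92 (0.991) and Klhl33 (0.980). Cldn3, Cldn23 and F11r, which were called in neither tissue comparison, were closest to Apoe (0.967) and Capns1 (0.965), to Idh3b (0.982) and Map10 (0.963), and to Lrrc26 (0.940) and Lpar2 (0.937).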

How the data were processed

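The 8 RNAseq libraries came from 4 mice, each giving a colon and an ileum sample. According to the methods and the processing notes, the authors aligned reads to mm10 with STAR 2.6.1a and counted uniquely mapped reads over exons of GENCODE genes with featureCounts. The deposited whole-number counts of 2 tables (28349 genes in the colon, 38649 in the ileum) were used, with the deposited exon length for values per kilobase. A gene that 1 table did not list was counted as 0 in the libraries of that table. The authors' normalized values, fold changes and p-values (DESeq2 1.18.1, with a harvest covariate) were not used. The strand setting of the counting is not given in the sources used here. Exons of Cldn3 overlap those of Wbscr25 on the other strand, which had 1 to 9 counts per library. Words of 50 bases shared with other genes made up 0.830% of F11r and none of the other 9 genes.

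Groups were taken from the labels. Low genes were removed with filterByExpr of edgeR (minimum count 10). Libraries were scaled with TMM and tested with edgeR 4.0.16 (quasi-likelihood, R 4.3.3), with Benjamini-Hochberg adjustment over all genes tested. Within a tissue the replicate number was a block, after the harvest covariate of the study. Tissues and the interaction were tested over all 8 libraries with a mean per group. Colon and ileum libraries of the same genotype and number come from 1 mouse: for 37 genes, the values that the study lists by mouse, divided by the counts, were constant for the matching library (coefficient of variation at most 1.6e-06). Their deviations from the group means correlated at 0.151 (WTIEC) and 0.165 (DDX5ΔIEC), and a block for the mouse changed no call of the 10 genes. In fits with a mean per group, p-values rest on the spread between the 2 mice of a group, shared across genes. With the replicate block they rest on how far the genotype difference varied between the 2 replicate numbers, also shared across genes. An exact permutation test of 2 against 2 cannot go below 0.333. Alternatives were DESeq2 1.42.0, RLE scaling, other filters, no block, all 8 libraries in 1 fit, removal of Gm10800, Gm10801 and Gm21738 (repeat-like), and each library left out. Fits were also run on simulated counts that had no replicate effect and no library rich in repeat-like genes, and no conclusion is drawn from them.

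The 10 genes and the lists were chosen with earlier results of these data known. Named beside the 10 are genes of the junction lists past adjusted p 0.05 or the criterion of the study between genotypes, the 3 of each list with the largest fold change among those called between WTIEC tissues, and the 2 most alike genes. Positions are from GENCODE vM21 and promoters from RefSeq, both GRCm38. Python 3.11.15 was used for the other steps.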

Additional observations from a re-analysis of the deposited data

How the results depend on the processing

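With 2 mice a group, p-values lean on the spread shared across genes, and leaving 1 library out lets a lone library stand for its group as if it varied like the others. At an adjusted p under 0.05, 0 of the 10 genes were called in the colon between genotypes. DESeq2 called 1 (Cldn8), against 0.762% of all genes. The count also moved without DDX5ΔIEC replicate 1 or 2, but such a fit leaves a lone library in its group. Calls there are not read as a result about the 10 genes. In the ileum the count was 0 in every alternative. By the criterion of the study the colon had 2 genes and 1 to 2 without single libraries (only Cldn8 without WTIEC replicate 2 or DDX5ΔIEC replicate 1). The ileum had 1, and 0 without the replicate block, 0 with all 8 libraries in 1 fit, 2 with RLE scaling, 1 with DESeq2 and 1 without the repeat-like genes (in both Cldn4, not Cldn8) and 0 to 2 without single libraries (2 without DDX5ΔIEC replicate 2 and 0 without any other). The cause of these shifts was not tested.

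The replicate numbers are a shared number only between genotypes: same-numbered libraries deviated together at r = 0.0056 in the colon and 0.240 in the ileum. Without the replicate block, genes called at an adjusted p under 0.05 went from 0 to 5 in the colon and from 98 to 1 in the ileum, and the 10 genes stayed at 0. Other counts over all genes in the ileum were 39 with DESeq2, 20 without the repeat-like genes, 423 with no filter and 7 with all 8 libraries in 1 fit, and in the colon 117 with DESeq2 and 10 with all 8 libraries. Genes at the criterion of the study fell to 508 with DESeq2 in the colon, from 1031, and to 414 in the ileum, from 1034. The interaction went from 2 genes to 17 with DESeq2, 1 with the mouse as a block and 210 with no filter.

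Between WTIEC tissues 6 genes were called, and 3 to 7 without single libraries (3 without WTIEC colon replicate 2). Between DDX5ΔIEC tissues it was 5, and 4 to 5. In WTIEC tissue Cldn3 turned to 0.0083 with DESeq2 and 0.0081 with RLE, and F11r to −0.034 with no filter and −0.00041 without the repeat-like genes. Without single libraries, log2 fold changes of genes that were not called ran across 0. Between colon genotypes, the ranges were Cldn15 −0.46 to 0.046, Cldn2 −0.30 to 0.17 and Cldn23 −0.088 to 0.16. Between ileum genotypes, the ranges were Cldn2 −0.19 to 0.30 and Cldn23 −0.15 to 0.29. Between WTIEC tissues, the ranges were Cldn3 −0.15 to 0.13 and F11r −0.0081 to 0.022. Between DDX5ΔIEC tissues, the ranges were Cldn23 −0.41 to 0.066 and Cldn3 −0.12 to 0.31. For the interaction, the ranges were Cldn2 −0.16 to 0.34, Cldn23 −0.21 to 0.27, Cldn3 −0.11 to 0.32, Cldn4 −0.54 to 0.081 and Cldn8 −0.54 to 0.59. With the longest transcript as length, Cldn3 and Cldn7 together held 69.8%, 74.2%, 67.2% and 69.0% of claudin RNA in WTIEC colon, DDX5ΔIEC colon, WTIEC ileum and DDX5ΔIEC ileum, against 66.8%, 71.6%, 63.7% and 65.5%, because the longest transcript of Cldn7 is shorter than its exons together.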
